A study of Sus scrofa with 41 samples.

Results

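The glucocorticoid response genes described here are a set of 8 listed genes, made up of the receptor and transcripts that it is known to induce. They are NR3C1, FKBP5, TSC22D3, KLF15, KLF9, ZBTB16, CEBPD and SGK1, and their rows were found by symbol. A row for 7 of the 8 was found among the 25880 genes counted, of which 14857 had a symbol. TSC22D3 was not analysed here.

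RNA-seq read counts were available from the psoas major muscle of 41 uncastrated male pigs, 13 Danbred Duroc and 28 Danbred Landrace, sampled right after slaughter. All pigs were purebred, were raised at a single breeding station on a shared feed mixture and received no experimental treatment, so the comparisons are between breeds, slaughter batches and continuous covariates. Age ran from 131 to 156 days in Duroc and from 147 to 166 days in Landrace, RNA integrity number (RIN) from 7.0 to 8.8 and from 6.5 to 8.3, and the feed conversion ratio (FCR) from 1.83 to 2.18 and from 1.92 to 2.25. The methods of the study describe FCR as growth over feed, while values of this size read as feed over growth, in which case a higher FCR is a less efficient pig. Batch, the slaughter day group in the study, held 1, 15, 9, 5 and 11 pigs in batches 1 to 5, of which 1, 3, 2, 3 and 4 were Duroc.

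Glucocorticoids such as cortisol bind the glucocorticoid receptor, the product of NR3C1, which waits in the cytoplasm in a complex with heat shock proteins and immunophilins. The hormone-bound receptor moves into the nucleus, binds DNA and changes the transcription of its target genes within hours. In skeletal muscle these hormones are known for turning metabolism towards protein breakdown and the use of amino acids as fuel, and KLF15 is among the transcription factors through which they do so.

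The libraries held 22188911 to 25954816 counts on genes (median 25243577), and 69.86% to 80.88% of the read pairs in each file fell on a gene. Normalization factors (TMM, which set the libraries to a shared composition) ran from 0.65 to 1.24. Skeletal muscle markers were abundant in every pig, with 73870 to 149000 CPM (normalized counts per 1000000) of ACTA1, the skeletal muscle actin, and 5 of the 11 listed muscle markers had a row. A pair of Landrace pigs had a RIN below 7, at 6.5 and 6.6.

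The 7 genes lay on 5 chromosomes in the RefSeq annotation of Sscrofa11.1, matched by symbol. NR3C1 (ENSSSCG00000014401) lay on chromosome 2 from 144822937 to 144956451 and FKBP5 (ENSSSCG00000001549) on chromosome 7 from 31441764 to 31550704. KLF15 (ENSSSCG00000036742) was on the same chromosome 7 from 53877813 to 53890558, and ZBTB16 (ENSSSCG00000030095) on chromosome 9 from 41639536 to 41839254. KLF9 (ENSSSCG00000021646), from 223723613 to 223747661, and SGK1 (ENSSSCG00000021443), from 29625786 to 29753619, shared chromosome 1. CEBPD (ENSSSCG00000032367) spanned 79872863 to 79874481 on chromosome 4, and the next gene, SPIDR, began 455 bases beyond it, at 79874937. Closer neighbours lay beside KLF15 (LOC102164647, 90 bases away) and ZBTB16 (LOC106504875, 64 bases away). In RefSeq 1 further gene overlapped NR3C1, 2 overlapped FKBP5 and 2 overlapped ZBTB16, so that with unstranded counting part of the reads of these 3 genes may be missing or shared.

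All 7 genes were detected in every pig and passed the filter on low counts. SGK1 had the fewest reads, 78 to 346 in a pig (median 219), so its values carry the largest counting error of the set. For the other genes the lowest pig had 295 counts (KLF15) to 1438 counts (ZBTB16). Without transcript lengths the levels of different genes cannot be ordered, and each gene is compared only with itself below.

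NR3C1, the receptor itself, ranged from 35.2 to 108 CPM over the 41 pigs, with a median of 63.4. FKBP5 encodes an immunophilin that binds the receptor complex, lowers its affinity for the hormone and is itself induced by it, and ranged from 47.5 to 167 CPM with a median of 97.1. SGK1, a kinase that regulates ion channels and cell survival, ranged from 4.30 to 14.5 CPM with a median of 8.22. The highest pig thus had 3.08 times the level of the lowest for NR3C1, 3.52 times for FKBP5 and 3.38 times for SGK1.

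The transcription factors of the set spread over different ranges. KLF15 ranged from 16.0 to 82.3 CPM with a median of 36.4, and KLF9, a related zinc finger factor, from 31.7 to 136 CPM with a median of 69.6. CEBPD, a factor of the C/EBP family known from the acute phase response and adipocyte formation, ranged from 18.9 to 105 CPM with a median of 44.3, and its highest pig was 5.57 times its lowest. ZBTB16, a transcriptional repressor also called PLZF, ranged only from 65.1 to 130 CPM with a median of 103.

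On the log2 scale the standard deviation (SD) between pigs was 0.67 for CEBPD, above that of 90.4% of the 11146 genes tested, and 0.56 for KLF15, above 83.1%. ZBTB16 was the least variable of the set, with an SD of 0.25, above that of 24.2% of genes. NR3C1 lay near the middle with an SD of 0.36, against a median of 0.34 over all genes. The covariates together took 30.7% (CEBPD) to 49.0% (NR3C1) of the variance of a gene, while the median over all genes was 45.8%. For each of the 7 genes most of the variance therefore remained once batch, breed, age, RIN and FCR were removed.

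**Figure D1:**
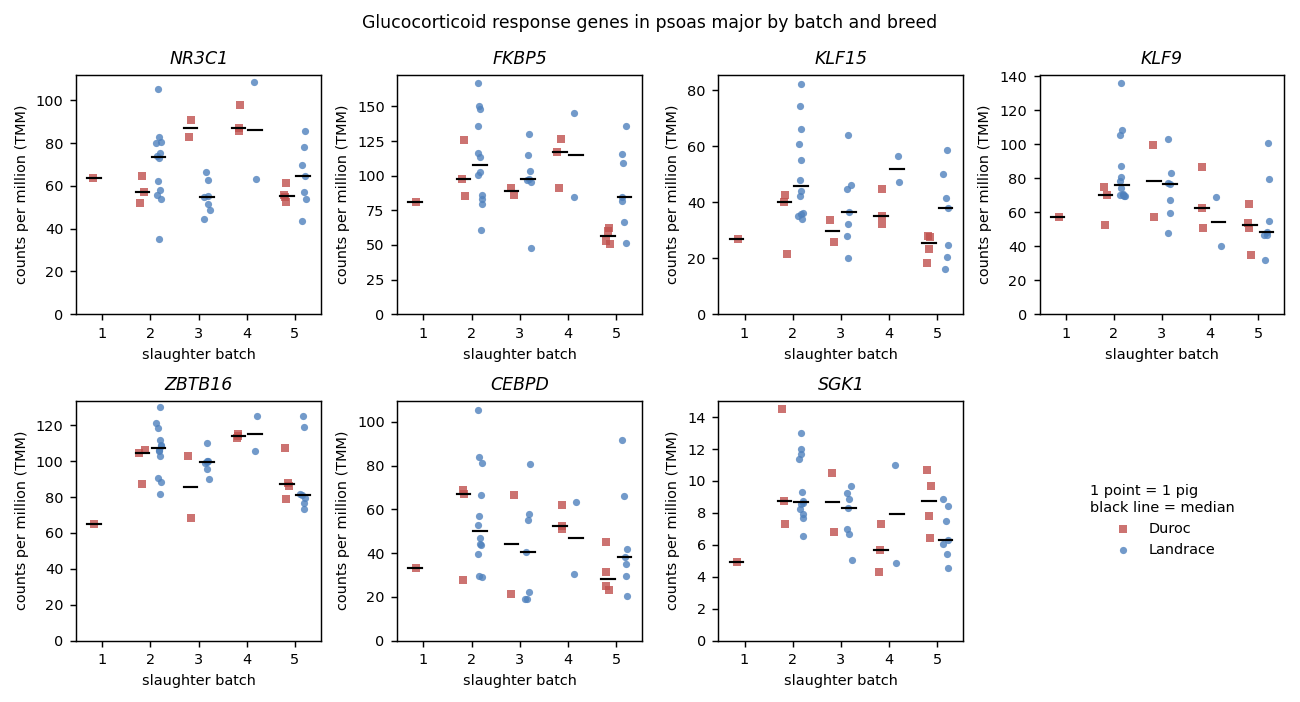
Level of each of the 7 genes (vertical axis, TMM-normalized CPM, from 0) against slaughter batch (horizontal axis), with Duroc pigs as red squares, Landrace pigs as blue circles and black lines at the median of each breed in each batch, 1 point per pig. KLF15 medians of Landrace lay above those of Duroc in batches 2 to 5, and the 5 pigs of batch 4 had ZBTB16 levels of 105 to 125 CPM. CEBPD ranged from 30.5 to 63.2 CPM in batch 4 and more widely in batches 2, 3 and 5.

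The first question was which genes differed between slaughter batches. Levels of 3 of the 7 genes, ZBTB16, SGK1 and NR3C1, changed with batch in the joint fit of FCR, RIN, age, breed and batch (edgeR quasi-likelihood test, Benjamini-Hochberg FDR below 0.1 over all 11146 genes). Over all genes 24.1% were called for batch, and the median fitted spread between the highest and the lowest of batches 2 to 5 was 0.47 on the log2 scale for the 7 genes and 0.32 for all genes. Such a spread is never below 0 and also grows with the variability of a gene. KLF15 had a spread of 0.50 without a call, while ZBTB16 was called at 0.44. In a bulk sample, fewer cells of a type and less RNA per cell cannot be told apart, which holds for every result here.

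ZBTB16 had the smallest batch FDR of the set. Its levels were 105, 113, 114, 115 and 125 CPM in the 5 pigs of batch 4, 81.8 to 130 CPM (median 107) in batch 2, 68.6 to 110 CPM (median 99.5) in batch 3, 73.1 to 125 CPM (median 81.9) in batch 5 and 65.1 CPM in the 1 pig of batch 1. The 3 Duroc pigs of batch 4 lay within 113 to 115 CPM, although the ranges of batches 2 to 5 overlapped. The fitted order was batch 4, 2, 3 and 5, with a spread of 0.44 (FDR 0.0328), and the step from batch 4 to batch 5 of -0.44 (SE 0.13) missed the threshold over all genes (p = 0.00215, FDR 0.112 by edgeR, where 1.83% of genes passed). The pig of batch 1 was the lowest of all 41 for ZBTB16, and the batch FDR without it was 0.0938.

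SGK1 had its lowest median in batch 4, among batches 2 to 5, where the 5 pigs had 4.30, 4.88, 5.65, 7.28 and 11.0 CPM. In batch 2 it ranged from 6.57 to 14.5 CPM with a median of 8.72, in batch 3 from 5.05 to 10.5 CPM with a median of 8.33, and in batch 5 from 4.57 to 10.7 CPM with a median of 7.47, while the 1 pig of batch 1 had 4.91 CPM. Thus 3 of the 5 pigs of batch 4 lay below every pig of batch 2. The fitted order was batch 2, 3, 5 and 4 with a spread of 0.60 (FDR 0.0755), and SGK1 fell by 0.60 (SE 0.20) from batch 2 to batch 4 (edgeR FDR 0.0458), a step called for 22.9% of all genes. The batch call of SGK1 was lost without Duroc replicate 2, the 1 pig of batch 1 (FDR 0.137), and without each of Duroc replicate 9 and Landrace replicates 7, 11, 17 and 24 (FDR 0.101 to 0.178), while the spread stayed between 0.46 and 0.91 over all 41 such fits.

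NR3C1 went the other way. The 5 pigs of batch 4 had 63.4, 85.4, 87.2, 97.7 and 108 CPM, against 35.2 to 105 CPM (median 64.8) in batch 2, 44.4 to 90.9 CPM (median 55.3) in batch 3 and 43.8 to 85.6 CPM (median 57.1) in batch 5. Of the batch 4 pigs 4 of 5 lay above the median of each other batch, and the ranges overlapped. The fitted order was batch 4, 5, 3 and 2 with a spread of 0.47 (FDR 0.0790), and NR3C1 rose by 0.47 (SE 0.15) from batch 2 to batch 4 (edgeR FDR 0.0321). The NR3C1 batch call was lost without the 2 pigs of RIN below 7 (FDR 0.116), with library size as the only scaling (spread 0.29, FDR 0.281), in models without age (FDR 0.215) or RIN (FDR 0.176) or with batch alone (FDR 0.150), and without each of Duroc replicates 3 and 9 and Landrace replicates 1, 24 and 26 (FDR 0.102 to 0.212). With batch coded as a number ZBTB16 (0.02, FDR 0.923) and SGK1 (0.38, FDR 0.236) lost their calls, SGK1 also without a filter on low counts (FDR 0.123), and within 1 breed none of the 3 genes passed (FDR 0.126 to 0.819).

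The other 4 genes had fitted batch spreads of 0.42 (CEBPD), 0.43 (FKBP5), 0.50 (KLF15) and 0.53 (KLF9), with FDR values from 0.218 to 0.632. KLF9 came closest, with a median of 74.2 CPM in batch 2, 76.6 in batch 3, 62.6 in batch 4 and 50.8 in batch 5. Its fitted difference between batches 5 and 2 was -0.53 (SE 0.21, edgeR FDR 0.122), where 11.3% of genes were called. The batch spread of KLF9 passed under library size scaling (0.74, FDR 0.0726), in a model without RIN (0.72, FDR 0.0753) and with batch alone (0.54, FDR 0.0874). No gene of the set passed between batches 3 and 2 (0.179% of genes called), 4 and 3 (0.763%) or 5 and 3 (6.89%), and for none of the 7 did neighbours in the fitted order of batches differ beyond the threshold.

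Markers of other cell types also changed with batch. Of the leukocyte markers 5 of 7 were called, with ITGAM, CSF1R and CD68 having the smallest p, and their summed level was 27.9 to 84.2 CPM in batch 2, 23.2 to 80.8 in batch 3, 14.7 to 58.5 in batch 4 and 10.2 to 42.9 in batch 5. Of the endothelial markers 3 of 4 were called, KDR, CDH5 and PECAM1, with summed levels of 64.5 to 134, 59.1 to 156, 56.1 to 144 and 29.0 to 160 CPM in the same order. The muscle markers DES, CKM and TNNT3, 3 of 5 (60%), changed with batch as well. Of the smooth muscle and pericyte markers 1 of 5 did (MCAM, 20%), and of the fibroblast markers 1 of 5 (COL3A1, 20%). None of the 2 adipocyte or 3 satellite cell markers tested was called. Over all genes 24.1% were called for batch, against 71.4% of the leukocyte and 75% of the endothelial markers. No leukocyte or endothelial marker was at 0 in any pig, and the part of these cells in the batch results was not tested. Over the 41 pigs SGK1 had a Spearman rho of 0.45 with the summed leukocyte markers, 0.42 with the endothelial ones and 0.42 with the smooth muscle and pericyte ones. The same values were 0.15, -0.12 and -0.14 for NR3C1 and 0.13, -0.13 and -0.09 for ZBTB16, as a description across libraries that share batch and depth.

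The next comparison was between the breeds, at equal batch, age, RIN and FCR. KLF15 was the only gene of the set that differed past the threshold, with a level 1.51 times higher in Landrace, while 33.1% of all genes were called for breed and 15.6% were called higher in Landrace. With 1 of 7, the set was thus not above the background. The fitted differences, Landrace minus Duroc, were above 0 for all 7 genes, with a median of 0.29 on the log2 scale against -0.002 over all genes, but with library size as the only scaling those of KLF9 (-0.07), ZBTB16 (-0.16) and SGK1 (-0.16) were below 0, and the median of all genes moved to -0.18. Differences below 0 were also found for NR3C1 with breed as the only covariate (-0.08), for KLF9 (-0.01) and SGK1 (-0.0003) without RIN, and for SGK1 with limma (-0.03) and without FCR (-0.07), none of them past the threshold. Within batches 2 to 5, without the other covariates, the Landrace mean was higher in 4 of 4 for FKBP5 and KLF15 and in 3 for ZBTB16. It was higher in 2 of 4 for NR3C1, KLF9 and CEBPD and in 1 for SGK1.

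KLF15 ranged from 18.3 to 44.9 CPM in the 13 Duroc pigs, with a median of 27.9, and from 16.0 to 82.3 CPM in the 28 Landrace pigs, with a median of 43.1. The mean levels were 30.8 ± 8.24 (SD, n = 13) and 44.2 ± 16.3 (SD, n = 28) CPM, and the lowest pig of all was a Landrace, so the ranges overlapped. The fitted log2 difference was 0.59 (SE 0.26, p = 0.0278, edgeR FDR 0.0887).

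Within batches the mean log2 level of KLF15 was higher in Landrace in 4 of 4 batches, by 0.55 in batch 2, 0.31 in batch 3, 0.48 in batch 4 and 0.44 in batch 5. In batch 4 the Duroc pigs had 32.3, 34.9 and 44.9 CPM and the Landrace pigs 47.1 and 56.5 CPM, without overlap (exact permutation test, two-sided, p = 0.2, the smallest that 3 against 2 pigs allows). No within-batch breed difference of any gene passed after adjustment over 28 such tests (lowest adjusted exact p = 0.665).

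The KLF15 call stood near the threshold. It was lost with limma (0.51, FDR 0.132), with library size as the only scaling (0.40, FDR 0.284) and without a filter on low counts (0.61, FDR 0.113). It was also lost without each of Duroc replicates 3, 5, 6 and 9 and Landrace replicates 4, 6, 11, 12, 14, 15, 19, 21, 26 and 28 (FDR 0.101 to 0.260), while the difference stayed between 0.43 and 0.71 over the 41 fits with 1 pig left out.

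CEBPD had the largest fitted breed difference, 0.62 (SE 0.33), but its spread between pigs was wide and it missed the threshold (FDR 0.166). Its levels were 21.1 to 68.8 CPM (median 45.2) in Duroc and 18.9 to 105 CPM (median 44.0) in Landrace, so that the unadjusted medians were nearly the same. Within batches the Landrace mean of CEBPD was higher in batches 2 (0.06) and 5 (0.45) and lower in batches 3 (-0.05) and 4 (-0.32). Over 11 other settings the fitted difference lay between 0.17 and 0.72, never past the threshold. FKBP5, at 51.0 to 126 CPM (median 86.2) in Duroc and 47.5 to 167 CPM (median 102) in Landrace, had a difference of 0.41 (SE 0.21, FDR 0.157). In batch 5 the 4 Duroc pigs had 51.0, 52.5, 60.2 and 62.5 CPM of FKBP5 and the 7 Landrace pigs 51.4 to 136 CPM, a difference of 0.64 (exact permutation p = 0.0303, 0.665 after adjustment), against 0.004 to 0.09 in batches 2 to 4.

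NR3C1 had a fitted breed difference of 0.29 (SE 0.15, FDR 0.157), which passed in the model without FCR (0.32, FDR 0.0857), and the sign of the difference was not the same in every batch. In batch 3 the Duroc pigs, at 83.0 and 90.9 CPM, lay above all 7 Landrace pigs, at 44.4 to 66.3 CPM (-0.67, exact permutation p = 0.0556, the smallest that 2 against 7 pigs allows, 0.665 after adjustment). In batch 4 the Landrace mean was lower as well (-0.12), and in batches 2 and 5 it was higher, by 0.22 and 0.18. KLF9 (0.12, SE 0.19), ZBTB16 (0.02, SE 0.11) and SGK1 (0.01, SE 0.19) had breed differences smaller than their standard errors, with 95% intervals from -0.26 to 0.50, from -0.18 to 0.23 and from -0.37 to 0.38.

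Markers of some non-muscle cells differed between the breeds as well, where 33.1% of all genes were called. All 4 endothelial markers were lower in Landrace, led by KDR, CDH5 and PECAM1, with summed levels of 53.6 to 160 CPM (median 123) in Duroc and 29.0 to 136 CPM (median 85.6) in Landrace. Lower in Landrace were also 4 of 5 smooth muscle and pericyte markers (MCAM, RGS5 and ACTA2 first; summed 148 to 421 against 135 to 367 CPM), 2 of 3 satellite cell markers (PAX7 and CALCR; 3.89 to 14.2 against 1.37 to 8.88 CPM) and 2 of 5 fibroblast markers (PDGFRA and LUM; 499 to 3720 against 495 to 10260 CPM). Of the adipocyte markers 1 of 2 tested was lower (ADIPOQ), with LEP at 0 in 29 pigs and PLIN1 at 0 in 4. The adipocyte sums went the other way by median, with 9.88 to 113 CPM (median 22.0) in Duroc and 10.5 to 144 CPM (median 34.7) in Landrace. The mean level of FABP4 was 21.4 CPM in Duroc and 34.3 CPM in Landrace. Of the leukocyte markers only 1 of 7 was called lower (CSF1R), 14.3% against 33.1% of all genes. The leukocyte sums were 15.5 to 64.2 CPM (median 34.06) in Duroc and 10.2 to 84.2 CPM (median 40.15) in Landrace. The muscle markers TNNT3, ACTA1 and CKM, 3 of the 5 with a row, were higher in Landrace. DES and TNNT1 were not called. Mean levels were 5573 CPM in Duroc and 5798 CPM in Landrace for DES, and 1617 and 1437 CPM for TNNT1. Over all pigs KLF15 had a Spearman rho of -0.52 with the summed satellite cell markers and -0.19 with the endothelial ones, and the part of these cells in the KLF15 result was not tested.

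**Figure D2:**
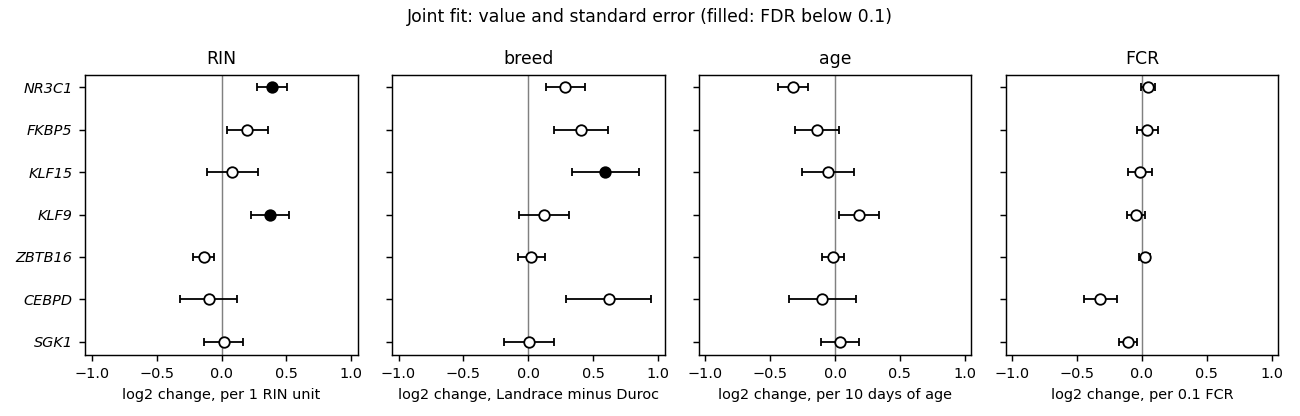
Fitted log2 change of each gene per 1 RIN unit, between the breeds (Landrace minus Duroc), per 10 days of age and per 0.1 FCR (horizontal axes), with bars for 1 standard error. Filled circles passed an FDR of 0.1: NR3C1 and KLF9 for RIN and KLF15 for breed, and all values for age and FCR are open.

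RNA integrity was the covariate with the most calls over the genome, 51.8% of the genes tested, with 23.9% higher at higher RIN. In the set, 2 of 7 genes rose with RIN, NR3C1 and KLF9, and none fell. For the receptor NR3C1 the level was 1.31 times higher per RIN unit, a log2 slope of 0.39 (SE 0.11, edgeR FDR 0.00553). For KLF9 it was 1.30 times higher per unit, a slope of 0.37 (SE 0.14, FDR 0.0331).

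Taken alone, the log2 level of NR3C1 correlated with RIN over the 41 pigs with Pearson r = 0.477 (permutation p = 0.00147, 0.0309 after adjustment over 21 relations) and Spearman rho = 0.462 (adjusted permutation p = 0.0369). It was 0.440 without the 2 pigs farthest from the median RIN, and 0.690, 0.601 and 0.265 within batches 2, 3 and 5. NR3C1 was lowest, at 35.2 CPM, in the Landrace pig with the lowest RIN, 6.5 (Landrace replicate 1), and without that pig the fitted slope was 0.26 (FDR 0.113). In the Duroc pigs alone it was 0.22 (FDR 0.476), and in the Landrace pigs alone 0.48 (FDR 0.00666).

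For KLF9 the correlation with RIN was r = 0.448 (permutation p = 0.00345, adjusted 0.0362) and rho = 0.362 (adjusted permutation p = 0.141), and r = 0.411 without the 2 farthest pigs. Within batches r was 0.105 in batch 2, 0.166 in batch 3 and 0.716 in batch 5, the batch with the lowest median RIN of 7.7. The difference between batches was not tested. The fitted call was lost without Duroc replicate 10 (slope 0.31, FDR 0.113) and without Landrace replicate 27 (0.31, FDR 0.104), the 2 libraries with the lowest normalization factors, 0.70 and 0.65, both of batch 5. It was also lost in the Landrace pigs alone (0.32, FDR 0.129) and in the Duroc pigs alone (0.56, FDR 0.447).

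The remaining RIN slopes were 0.20 (SE 0.16) for FKBP5, 0.08 (SE 0.20) for KLF15, 0.02 (SE 0.15) for SGK1, -0.10 (SE 0.22) for CEBPD and -0.14 (SE 0.08) for ZBTB16, with FDR values from 0.150 to 0.938. The slopes of ZBTB16 and CEBPD turned to 0.18 (FDR 0.0507) and 0.19 (FDR 0.496) with library size as the only scaling, which also moved the median slope of all genes from -0.01 to 0.30. Under that scaling FKBP5 (0.52, FDR 0.0099) and SGK1 (0.33, FDR 0.0982) also passed. Of the fibroblast markers 3 of 5 (60%) rose with RIN (LUM, PDGFRA and COL3A1), with a summed level from 495 to 10260 CPM over all pigs and none at 0. The muscle markers TNNT3, DES and TNNT1, 3 of 5 (60%), fell. So did the smooth muscle marker CNN1, 1 of 5 (20%), and the leukocyte marker CD3E, 1 of 7 (14.3%). No other marker of the smooth muscle and leukocyte lists passed, and their median slopes were -0.05 and -0.02, against -0.01 for all genes. None of the 4 endothelial, 2 adipocyte or 3 satellite cell markers tested was called, against 51.8% of all genes. The part of these markers in the RIN results was not tested.

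**Figure D3:**
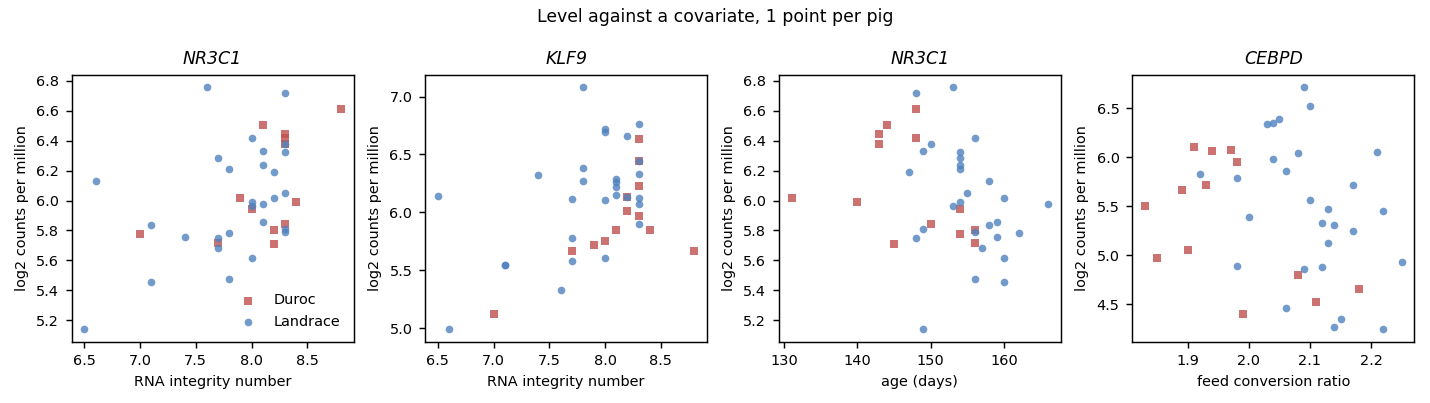
Log2 CPM of NR3C1 and KLF9 against RIN, of NR3C1 against age in days and of CEBPD against FCR, with Duroc pigs as red squares and Landrace pigs as blue circles, 1 point per pig. The Pearson r with RIN was 0.477 for NR3C1 and 0.448 for KLF9, NR3C1 was lower in older pigs by rank (rho -0.449), and CEBPD had r = -0.259 with FCR.

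Age was called for 1.76% of all genes and for 0 of the 7, by edgeR, DESeq2 and limma alike, and 1 of the 7 had an unadjusted p below 0.05 in edgeR, as did 16% of all genes. That gene was NR3C1, with a slope of -0.32 per 10 days (SE 0.12, p = 0.00849, edgeR FDR 0.170). Its level and age correlated with Spearman rho = -0.449 (adjusted permutation p = 0.0369) and Pearson r = -0.319 (adjusted permutation p = 0.296), and r was -0.408 without the 2 farthest pigs. Within batches r was 0.072 in batch 2, -0.704 in batch 3 and -0.348 in batch 5. With batch coded as a number the slope of NR3C1 passed, at -0.39 (FDR 0.0411). For the other 6 genes the age slopes lay between -0.14 and 0.18, with FDR values from 0.588 to 0.953. Of the endothelial markers 2 of 4 rose with age, KDR (0.72 per 10 days, FDR 0.0693) and CDH5 (0.45, FDR 0.0965), with list sums of 29.0 to 160 CPM over all pigs and none at 0, and their part in the NR3C1 values was not tested.

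The study set out to relate muscle transcripts to feed efficiency, and for FCR 0 of the 7 genes were called by edgeR, DESeq2 or limma, as 0% of all genes were in edgeR, where the lowest FDR over 11146 genes was 0.284. Over all genes 968 (8.68%) had an unadjusted p below 0.05 in edgeR, DESeq2 called 5 genes and limma 0. Of the set, CEBPD alone had an unadjusted p below 0.05, with a slope of -0.32 per 0.1 FCR (SE 0.13, p = 0.0152, FDR 0.535). The 95% interval of this slope ran from -0.57 to -0.07, and it stayed between -0.42 and -0.14 over the 12 other settings (FDR 0.268 to 0.987) and between -0.38 and -0.28 with any 1 pig left out.

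Alone, CEBPD correlated with FCR with r = -0.259 (permutation p = 0.102, adjusted 0.538) and rho = -0.336 (adjusted permutation p = 0.167), with -0.148, -0.580 and -0.200 within batches 2, 3 and 5. Within the breeds it was -0.507 (Duroc) and -0.337 (Landrace). SGK1 had a slope of -0.10 (SE 0.07), and the other 5 genes lay between -0.04 and 0.05 per 0.1 FCR. For these 5, NR3C1, FKBP5, KLF15, KLF9 and ZBTB16, the 95% intervals lay within -0.19 and 0.20.

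No difference in FCR slope between the breeds passed for a gene of the set, and again 0% of all genes passed in edgeR (582 at an unadjusted p below 0.05, 1 called by DESeq2 and 0 by limma). The largest difference was that of KLF15, whose slope was higher in Landrace by 0.32 per 0.1 FCR (SE 0.18, p = 0.0740, FDR 0.931), and r between KLF15 and FCR was -0.584 within Duroc and 0.148 within Landrace.

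How the genes varied with each other was then examined over the 21 pairs. On log2 CPM 5 of the 21 pairs passed an adjusted permutation p of 0.05 by Pearson r, all of them positive, with a median r of 0.07 over all 21. They were 5 of the 6 pairs among FKBP5, KLF15, KLF9 and CEBPD, the exception being FKBP5 with CEBPD. On this scale no pair with the receptor NR3C1, ZBTB16 or SGK1 passed.

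FKBP5 and KLF15 were the closest pair, with r = 0.664 (permutation p = 1e-05, the smallest that 100000 permutations can give, adjusted 0.00021) and rho = 0.636. The r was 0.615 without the 2 pigs farthest from the median of FKBP5, 0.490, 0.555 and 0.671 within batches 2, 3 and 5, and 0.713 in Duroc and 0.618 in Landrace. For scale, 1.52% of the 11145 other genes had an r above 0.5 with FKBP5 and 0.449% with KLF15.

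KLF15 was also linked to KLF9, with r = 0.540 (adjusted permutation p = 0.00242) and 0.480, 0.497 and 0.516 within batches 2, 3 and 5. With CEBPD its r was 0.510 (adjusted permutation p = 0.00504), with 0.213, 0.434 and 0.796 in the same batches and 0.850 in Duroc against 0.432 in Landrace, a difference that was not tested. FKBP5 and KLF9 had r = 0.421 (adjusted permutation p = 0.0340; 0.437, 0.284 and 0.312 within batches), and KLF9 and CEBPD 0.392 (adjusted permutation p = 0.0494), which was -0.210 in batch 2, 0.738 in batch 3 and 0.499 in batch 5. For FKBP5 and CEBPD r was 0.349 (adjusted permutation p = 0.0898).

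**Figure D4:**
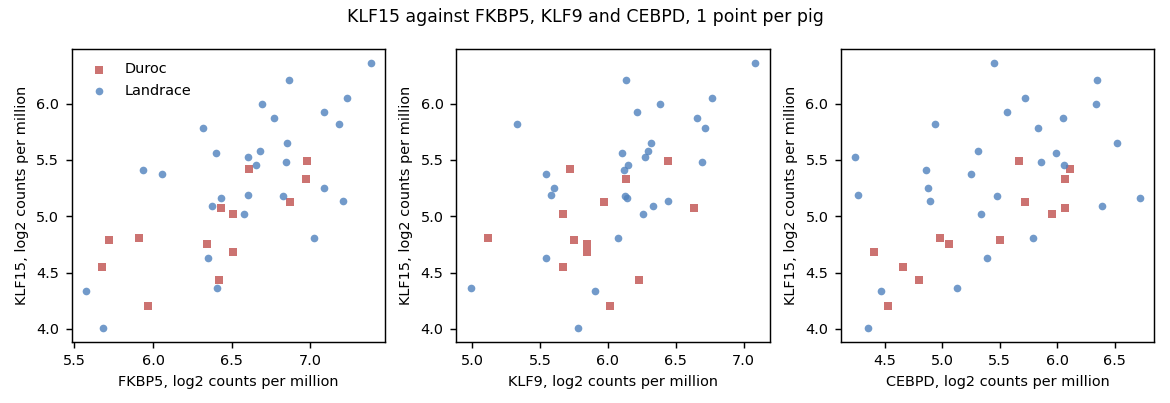
Log2 CPM of KLF15 (vertical axes) against FKBP5, KLF9 and CEBPD (horizontal axes), with Duroc pigs as red squares and Landrace pigs as blue circles, 1 point per pig. The Pearson r was 0.664, 0.540 and 0.510 over the 41 pigs, and the Duroc points lie towards the lower end of KLF15 in each panel.

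The receptor NR3C1 had r = 0.308 with FKBP5, 0.0006 with KLF15, -0.042 with KLF9 and -0.128 with CEBPD, with adjusted permutation p from 0.148 to 0.997. With ZBTB16 it had r = 0.293 (adjusted permutation p = 0.148) but rho = 0.400 (adjusted permutation p = 0.0353). SGK1 had r between -0.182 and 0.292 with the other 6 genes, none of which passed.

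When batch, breed, RIN, age and FCR were removed from each gene, 4 positive pairs still passed by Pearson r: FKBP5 with KLF15 at 0.528 (adjusted permutation p = 0.00714), KLF15 with KLF9 at 0.479, KLF15 with CEBPD at 0.452 and KLF9 with CEBPD at 0.434. FKBP5 with KLF9, at 0.268, no longer did. A pair of negative correlations also passed, KLF15 with ZBTB16 at -0.395 and FKBP5 with SGK1 at -0.390 (adjusted permutation p = 0.0376 for both). By Spearman's rho none of the 21 pairs passed on this scale, the closest being FKBP5 with KLF15 (rho = 0.459, adjusted permutation p = 0.0634), and without the 2 farthest pigs the r of KLF15 with ZBTB16 was -0.241. With library size as the only scaling all 21 r values were positive, with a median of 0.46, and 15 passed, among them NR3C1 with FKBP5 (0.554) and with ZBTB16 (0.601).

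**Figure D5:**
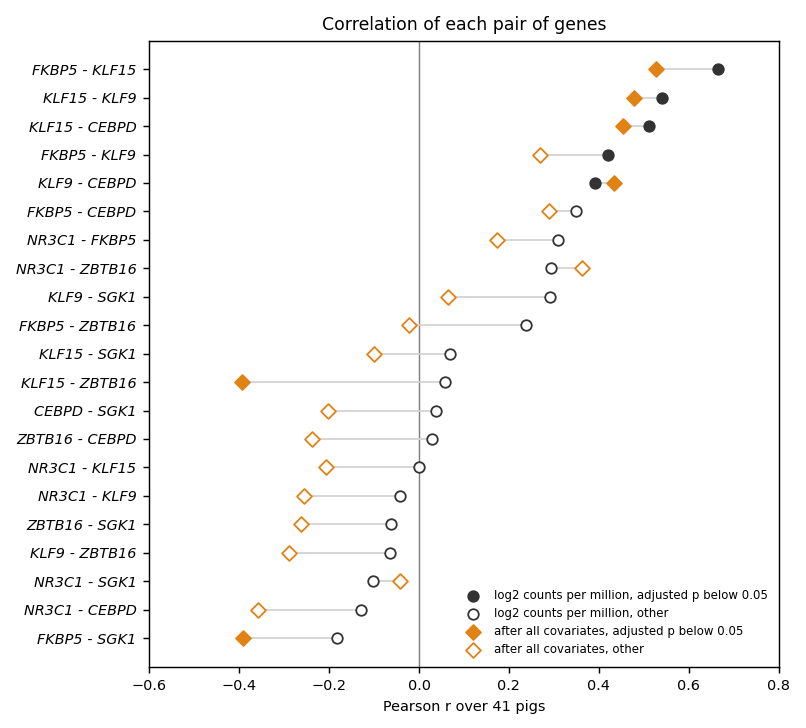
Pearson r over 41 pigs (horizontal axis) for each of the 21 pairs of genes (vertical axis), as black circles on log2 CPM and as orange diamonds after all covariates were removed, filled where the adjusted permutation p was below 0.05. The 5 filled circles are pairs among FKBP5, KLF15, KLF9 and CEBPD, from 0.392 to 0.664, and the 2 filled diamonds below 0 are at -0.395 and -0.390.

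For each gene the 3 most similar of the other 11145 were taken by Spearman rho over the 41 pigs, as a description of libraries that share batch, depth and composition. CEBPD had the closest partner of the set, SPIDR, a DNA repair factor and its neighbour on chromosome 4, with rho = 0.883 on log2 CPM and 0.926 after the covariates were removed. SPIDR ranged from 10.8 to 65.8 CPM and had a fitted FCR slope of -0.27 (FDR 0.535) and a breed difference of 0.69 (FDR 0.0674), against -0.32 and 0.62 in CEBPD. Reads were counted without strand, so reads of one gene that fall in the annotated span of the other cannot be told apart. PFKFB3, an enzyme that drives glycolysis, came next for CEBPD, with rho of 0.746 and 0.797, followed by MID1IP1 (0.727), and by ETS2 (0.676) after covariates.

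For KLF15 the leading genes were ETS2 (0.651), the clock gene PER1 (0.650) and PNRC1 (0.644), and after covariates PER1 (0.703), the electron donor of cytochrome P450 enzymes POR (0.684) and ZNF436 (0.674). PER1 itself ranged from 54.0 to 284 CPM and changed with batch (spread 0.35, FDR 0.00537). FKBP5 had LRP10 (0.749), PITX3 (0.738) and XAB2 (0.708), and after covariates CHRNA10 (0.759), FDX1 (0.727) and PITX3 (0.722). KLF9 had CENPC (0.71) and MTR (0.706), and after covariates ITPRID2 (0.678), DDIT4 (0.660), an inhibitor of mTOR signalling, and ZNF184 (0.654).

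NR3C1 had the cohesin subunit STAG2 (0.808), PM20D2 (0.779) and DDX21 (0.757), and after covariates LAMP2 (0.725), ENSSSCG00000001075 (0.724) and STAG2 (0.714). ZBTB16 had ENSSSCG00000029203 (0.727), the cohesin loader NIPBL (0.664) and the chromatin remodeller CHD7 (0.657), and after covariates NIPBL (0.673), CHD7 (0.664) and RNF150 (0.641). SGK1 had ENSSSCG00000015383 (0.617) and PPP1R16B (0.602), and after covariates ENSSSCG00000035209 (0.660), SNX24 (0.655) and COX7A2L (0.648). Apart from PITX3, NIPBL, CHD7, STAG2, PER1, SPIDR and PFKFB3, each of these names appeared for its gene on only 1 of the 2 scales.

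The genes that act with the receptor were read from the same fit. Of 24 listed chaperones, co-regulators and hormone-converting enzymes 22 were tested, and 8 differed between breeds, 6 higher and 2 lower in Landrace. The smallest p belonged to BAG1, a cochaperone that binds the receptor (0.39, SE 0.08, FDR 0.000329), to PTGES3, the p23 cochaperone (0.36, SE 0.08, FDR 0.0015), and to STIP1, which joins HSP70 to HSP90 (0.41, SE 0.13, FDR 0.0147). The list had a median breed difference of 0.16, and the share called was 36.4%, against 33.1% of all genes.

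With RIN 11 of the 22 changed, a share of 50% against 51.8% of all genes, 8 upwards and 3 downwards, led by the coactivators NCOA3 (0.66, FDR 6.31e-06), NCOA2 (0.68, FDR 2.91e-05) and CREBBP (0.60, FDR 0.000111). With batch 7 changed, 31.8% against 24.1% of all genes, led by HSP90AB1 (spread 0.38), NCOA3 (0.52) and NCOA1 (0.12). HSD11B1, the enzyme that regenerates cortisol in the cell, ranged from 1.74 to 7.85 CPM and passed for none of the 5 terms, and HSD11B2, which inactivates it, had at most 0.41 CPM and was below the filter. For FCR 0 of the 22 were called by edgeR and for age 0, with 2 (9.09% against 8.68% of all genes) and 4 (18.2% against 16%) at an unadjusted p below 0.05.

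Of 34 other listed glucocorticoid-induced genes 28 were tested. Between breeds 8 changed, 5 higher and 3 lower in Landrace, a share of 28.6% against 33.1% of all genes. Those with the smallest p were ANGPTL4, an inhibitor of lipoprotein lipase, at -0.94 (SE 0.17, FDR 0.000115), SESN1, a stress-induced inhibitor of mTORC1, at 0.73 (SE 0.17, FDR 0.00167), and myostatin, MSTN, which limits muscle growth, at 1.17 (SE 0.31, FDR 0.00609). For age 1 of the 28 was called, against 1.76% of all genes, ANGPTL4 (0.49 per 10 days, FDR 0.0965).

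With batch 8 of the 28 changed, 28.6% against 24.1% of all genes, led by PER1, TXNIP, which binds thioredoxin (spread 0.88, FDR 0.0167), and TIPARP (1.26, FDR 0.0174). With RIN 10 changed, 35.7% against 51.8% of all genes, 6 upwards and 4 downwards, with CEBPB (-0.47), IRS2 (0.58) and NFKBIA (-0.41) having the smallest p. For FCR 0 of the 28 were called by edgeR, and 6 had an unadjusted p below 0.05 (21.4% against 8.68% of all genes), 5 of them with negative slopes.

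Genes of amino acid breakdown and transport linked to KLF15 were tested beside it. Of 8 measured above the filter, 5 differed between breeds, 62.5% against 33.1% of all genes, with BCKDHB higher and 4 lower in Landrace. GOT1, an aspartate aminotransferase, had -0.72 (SE 0.17, FDR 0.00214), BCKDK, the kinase that shuts off branched-chain ketoacid dehydrogenase, -0.32 (SE 0.08, FDR 0.00422), and DBT, a subunit of that dehydrogenase, -0.55 (SE 0.15, FDR 0.00608). Of these 8 genes 4 changed with RIN, 50% against 51.8% of all genes, first BCKDHA (-0.47), BCAT2 (-0.37) and BCKDHB (0.27). With batch 3 changed, 37.5% against 24.1% of all genes, the amino acid transporter SLC7A8 (spread 0.73), DBT (0.52) and GOT1 (0.55), and 0 changed with FCR or age by edgeR (1 at an unadjusted p below 0.05 for each, 12.5% against 8.68% and 16% of all genes).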

How the data were processed

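Muscle RNA of the 41 pigs was sequenced as unstranded read pairs of 100 bases on BGISEQ-500. The authors trimmed reads with Trimmomatic 0.39, mapped them with STAR 2.7.1a against Sscrofa11.1 and Ensembl genes, and deposited STAR's raw counts per gene, of which the unstranded column was used. Pairs that overlap several genes or map to several places are in no count. Groups and covariates came from the labels. The joint model (FCR, RIN, age, breed, batch as a factor of 5 levels) was fitted with edgeR 4.0.16 (legacy quasi-likelihood test, TMM, filterByExpr with a minimum count of 10, 11146 genes) in R 4.3.3, at FDR below 0.1. The batch test used all batches, and batch spreads leave out batch 1. DESeq2 1.42.0, limma 3.58.1, other scalings, filters and covariates, single breeds and leaving out each pig were alternatives. CPM are TMM-normalized, and log2 CPM has a prior count of 2. Correlations were tested two-sided with 100000 permutations (SciPy 1.17.1) and adjusted by Benjamini-Hochberg. Those after covariates permute residuals, which makes their p-values somewhat too small. The scripts were tested on simulated counts. No 2 libraries agreed within counting noise (lowest chi-squared per degree of freedom 14.3 over 820 pairs).

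The genes and lists were chosen with earlier results of these data known. Named are all listed genes, from each of the 4 other gene lists and the marker lists up to 3 called genes with the smallest p for batch, breed and RIN and any called for FCR or age, and the 3 genes most like each member on either scale, of which some are not reported here. HSD11B1, HSD11B2, BCKDHB, TNNT1, IER2, MYC and the neighbour SPIDR's fits were added after their values were seen. Positions are RefSeq's, matched by symbol. The p-values measure the spread between these pigs.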

Additional observations from a re-analysis of the deposited data

Results flagged for a closer look

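In groups of 4 to 10 pigs of a batch, or of a breed in a batch, a pig was singled out when its gap to the nearest other pig, on the log2 scale, was too large a share of the range of the group (Dixon's test at 95%). Of 35 such groups over the 7 genes 3 were singled out, where chance flags about 1 in 20 groups, or 1.75. FKBP5 in Landrace replicate 18 was 47.5 CPM, the lowest of the 9 pigs of batch 3, with the next at 86.2 CPM, and also the lowest of the 7 Landrace pigs of that batch, with the next at 95.5 CPM. Without this pig the breed difference of FKBP5 was 0.48 (edgeR FDR 0.0560), against 0.41 (FDR 0.157) with it, and its RIN was 8.3. ZBTB16 in Duroc replicate 8 was 68.6 CPM, the lowest of the 9 pigs of batch 3, with the next at 90.0 CPM, and without this pig the batch spread of ZBTB16 was 0.38, still past the threshold.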

How the results depend on the processing

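Of 525 values of single genes and pairs under other settings, 430 kept their direction and side of the threshold, 21 fell below it, 15 rose past it, 5 changed sign with a call and 54 without a call moved or changed sign. The 5 that changed sign and were called on 1 side were, under scaling by library size alone, the RIN slope of ZBTB16 (0.18) and the correlations of NR3C1 with KLF9 (0.424), KLF9 with ZBTB16 (0.496) and ZBTB16 with SGK1 (0.375), and after covariates that of KLF15 with ZBTB16 (-0.395). Library size scaling moved the median of all genes to 0.30 for RIN and to -0.18 for breed, so its counts for the 7 genes are not read as a trait of the set. It gave 15 pairs past the threshold, and called 5 of the 7 genes for RIN, 0 for breed and 45 genes of all for age. With Landrace pigs only, 1 of the 7 was called for RIN and 0 for batch, and with Duroc pigs only 0 and 0. For breed 0 were called with limma or without the low count filter, and 2 without FCR. With batch as a number 1 was called for batch and 1 for age. Counts of genes called for FCR were 5 (DESeq2) and 71 (FCR alone), of genes called for FCR by breed 1 (DESeq2), of genes called for RIN 0 (Duroc only) and of genes called for breed 2209 (breed alone). The genes called for batch were 1611 (batch as a number), 1773 (without age) and 0 (Duroc only). The genes called for age were 545 (DESeq2), 99 (no filter), 814 (batch as a number), 69 (without RIN), 685 (without FCR), 0 (Landrace only) and 1 (Duroc only). With 1 pig left out the genes called ranged from 0 to 1 for FCR and for FCR by breed and from 0 to 484 for age. They ranged from 4997 to 5896 for RIN, from 3075 to 3873 for breed and from 1528 to 3254 for batch. Of the 7 genes 1 to 2 were called for RIN, 1 to 3 for batch and 0 to 3 for breed in these fits. Causes were not tested, and fits of 1 breed also hold fewer pigs. A model without a covariate gives no value for it. No paired analysis was possible because the replicate numbers only name the pigs in accession order. Depth limits SGK1 most, with 78 to 346 counts.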

Other observations

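Immediate-early genes are known to respond to acute stimuli within minutes. Of 19 listed, 13 were tested, and 5 changed with batch, 38.5% against 24.1% of all genes, ATF3 (spread 2.88, edgeR FDR 0.0159), NR4A3 (2.28, FDR 0.0204), EGR1 (2.16, FDR 0.0381), IER2 (0.88, FDR 0.0845) and MYC (1.27, FDR 0.0875). The median spread of the list was 0.85, against 0.32 over all genes and 0.47 for the glucocorticoid response genes. Such spreads also grow with the variability of a gene. The summed level of the list was 478 to 1200 CPM in batch 2, 400 to 1366 CPM in batch 3, 589 to 1392 CPM in batch 4 and 284 to 755 CPM in batch 5. For breed 2 were called, IER2 (-0.83) and IER3 (-0.92), or 15.4% against 33.1% of all genes, for RIN 1, IER3 (-0.73), or 7.69% against 51.8%, and for age 0 by edgeR (2 at an unadjusted p below 0.05, 15.4% against 16% of all genes). For FCR 0 of the 13 were called, while 5, ATF3, IER2, IER3, MYC and NR4A3, had an unadjusted p below 0.05, 38.5% against 8.68% of all genes, with positive slopes from 0.19 to 0.73 per 0.1 FCR (FDR 0.529 to 0.559).

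Over the 41 pigs the summed immediate-early level had a Spearman rho of 0.34 with CEBPD, 0.30 with KLF15, 0.29 with ZBTB16, 0.28 with FKBP5, 0.18 with KLF9, 0.04 with NR3C1 and -0.17 with SGK1, given as a description of libraries that share batches. The summed adipocyte markers had 0.39 with FKBP5 and 0.36 with KLF15, and the summed skeletal muscle markers -0.41 with KLF9.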
